A study of Mus musculus with 21 samples.

Results

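The 9 genes described here encode titin, proteins of the Z-disc and the M-band and, for Mybpc3, a protein of the thick filament. The Z-disc and the M-band are the structures that anchor the filaments of the heart muscle's contractile unit, the sarcomere. They are Ttn, Mybpc3, Actn2, Myom1, Myom2, Ldb3, Tcap, Csrp3 and Myoz2, chosen by name from 19937 genes on the array, of which 11384 were expressed highly enough to be tested. They and the gene lists used below were chosen with earlier results of these data known. Their counts beside those of all genes are therefore descriptions. Each gene was read from the probe set annotated to it alone, and each of the 9 had 1 such probe set, so no choice between probe sets arose. All 9 were tested.

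Left ventricles came from mice aged 9 to 13 weeks that were killed 4 days after 1 or 4 daily intraperitoneal injections of tamoxifen at 40 mg/kg, or of the matching control. MerCreMer mice carry the transgene Tg(αMHC-MerCreMer), in which the cardiomyocyte promoter αMHC drives a Cre recombinase that tamoxifen activates, and their control-injected groups carry it too. The MerCreMer groups had 4 tamoxifen, 4 control, 1 tamoxifen or 1 control injections, with 3 arrays each. Wild-type mice had 4 tamoxifen injections on 3 arrays, or 4 control injections on 6 arrays. Each group of 3 held 1 male and 2 female samples, and wild-type controls comprised 3 males and 3 females. No floxed target gene is given in the labels. Nothing in the labels says that each sample was a separate animal, so the p values measure the spread between these samples, which may be partly technical.

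Titin spans the sarcomere from the Z-disc, where actin filaments of opposite polarity are cross-linked, to the M-band, where myosin filaments are held in register. Its elastic part carries passive tension, and proteins bound to its ends link mechanical load to signalling. Mutations in several of these genes cause inherited cardiomyopathy in humans.

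For 7 of the 9 genes RefSeq (GRCm38.p6) gave promoter windows of 250 bases before to 50 bases after a transcript start. That start is not always the outermost start of the gene. Tcap and Myom2 are the other two. A match to the MEF2 consensus, the A/T-rich sequence bound by the MEF2 factors of muscle, lay in the windows of 3 of the 7 genes, Ttn, Myoz2 and Mybpc3, on either strand. The same consensus was found in 3.19% of 32851 promoters of that length. The 250 bases before that transcript start are shown for these genes. Ttn and Myoz2 were lower after 4 tamoxifen injections while Mybpc3, with the same kind of match, was not called. The stretches are chr2:76982548-76982797 for Ttn and chr3:123034988-123035237 for Myoz2, both on the minus strand, and chr2:91117894-91118143 for Mybpc3 on the plus strand. The outermost start of each gene lies inside its stretch, at 76982557 for Ttn, 123035003 for Myoz2 and 91118114 for Mybpc3. Each stretch is written 5′ to 3′ along the gene, with the MEF2 match in capitals.
Ttn: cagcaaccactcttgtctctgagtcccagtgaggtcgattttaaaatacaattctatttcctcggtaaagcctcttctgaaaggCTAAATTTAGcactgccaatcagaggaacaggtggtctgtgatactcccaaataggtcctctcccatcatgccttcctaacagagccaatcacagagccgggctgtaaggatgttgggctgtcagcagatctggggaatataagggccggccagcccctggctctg
Myoz2: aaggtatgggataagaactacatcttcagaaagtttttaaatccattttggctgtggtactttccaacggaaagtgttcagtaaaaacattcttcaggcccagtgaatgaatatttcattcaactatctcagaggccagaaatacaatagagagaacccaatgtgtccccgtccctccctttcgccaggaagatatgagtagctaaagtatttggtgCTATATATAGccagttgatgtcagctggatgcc
Mybpc3: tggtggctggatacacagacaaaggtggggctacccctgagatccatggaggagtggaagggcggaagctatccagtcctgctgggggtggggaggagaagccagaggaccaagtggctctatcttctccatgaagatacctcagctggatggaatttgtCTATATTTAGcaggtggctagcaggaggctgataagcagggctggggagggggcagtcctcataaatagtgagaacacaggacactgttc

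The match began at position -166 in Ttn, -33 in Myoz2 and -90 in Mybpc3, where -1 is the last base before the start, and overlapped no match to the other motifs searched. A CArG box, the serum response factor consensus, was present for Ldb3 and Myom1, 2 of the 7 genes, and in 1.63% of all promoters. The windows of both genes lie inside the gene, at an internal start. The Myom1 stretch begins at chr17:71019307 on the plus strand, and the gene begins at 71003332. For Ldb3, on the minus strand of chr14, the stretches end at 34588931 and 34588857, and the gene ends at 34590314. The core letters CANNTG, the E-box that muscle regulatory factors can bind, were present for 6 of the 7 genes and in 72.3% of all promoters. TATAAA was present for 0 of the 7 genes and in 13.6% of all promoters. These percentages count promoters, and the 7 genes had 9 promoters between them. Counted that way, 3 of 9 held the MEF2 consensus, 3 of 9 a CArG box, 7 of 9 CANNTG and 0 of 9 TATAAA. A match describes the letters in this window and says nothing of binding, and no binding was measured.

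Values are log2 expression made by RMA (robust multi-array averaging), and a difference of 1 on this scale is a doubling. The medians of the arrays lay between 4.57 and 4.72, and 0 pairs of arrays were identical. The cardiomyocyte markers, 12 genes such as Myh6, Myl2 and Tnnt2 with none of the 9 among them, had a mean of 12.05 to 12.07 on the MerCreMer 4 control arrays. The 3 arrays of MerCreMer mice after 4 tamoxifen injections stood apart from each other. Their correlations over all genes were 0.9182 to 0.9742, and every other group had at least 0.9824. The median SD of the 9 genes was 0.286 in that group and 0.0498 to 0.112 in the others. An unannotated probe set, the first in the file, also split the arrays into a set of 8 and a set of 13, with values of at least 11.47 and at most 11.36. Of 3230 unannotated probe sets, 72 (2.23%) separated the MerCreMer arrays of the 2 sets. Each MerCreMer group had 1 array in the set of 13, which held all wild-type arrays. The labels name no batch, and of the MerCreMer arrays after 4 tamoxifen injections replicate 2 is the one in the set of 13.

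**Figure D1:**
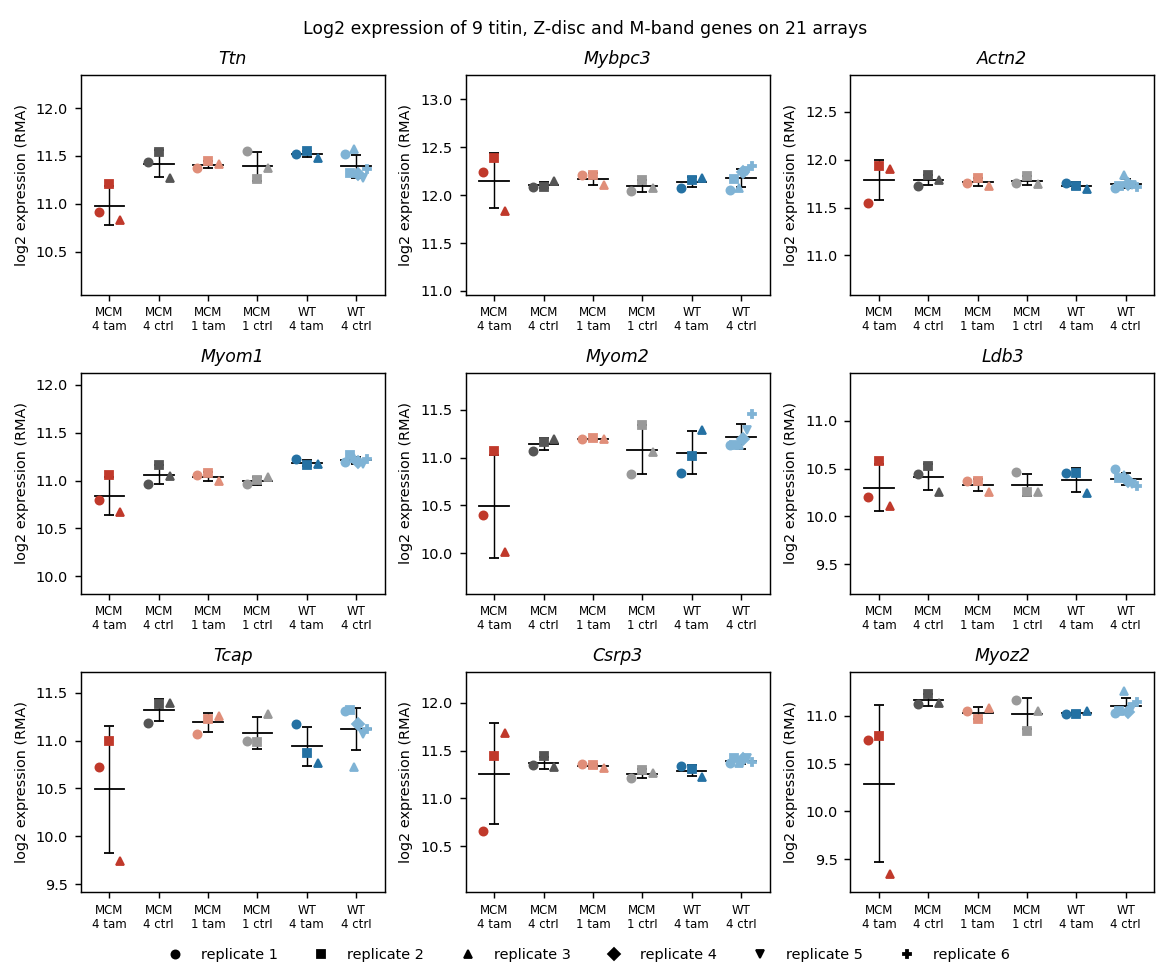
Log2 expression (vertical axis, RMA) of the 9 genes on each of 21 arrays, one panel per gene, by group (MCM, MerCreMer; WT, wild type; tam, tamoxifen; ctrl, control injections). Symbols mark replicate numbers, and bars and whiskers mean and SD. Panels span the same height, and the points of Ttn, Tcap and Myoz2 after 4 tamoxifen injections in MerCreMer mice lie below those after 4 control injections.

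The first comparison asked how the 9 genes differed after 4 tamoxifen injections and after 4 control injections in MerCreMer mice. Of the 9 genes, 4 fell and 0 rose: Myoz2, Tcap, Myom2 and Ttn. Over all 11384 genes tested, 9.41% fell and 13.9% rose. The median change of the 9 genes was -0.22, against 0.014 for all genes. Calls use a limma model of all 21 arrays with sex as a covariate, at an adjusted p below 0.05.

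Ttn encodes titin itself. It had log2 values of 10.91, 11.21 and 10.83 after 4 tamoxifen injections, against 11.44, 11.54 and 11.27 after 4 control injections. The lowest control array lay above the highest tamoxifen array, so the groups did not overlap. The means were 10.98 ± 0.201 and 11.42 ± 0.137 (SD, n = 3 each). The fitted change was -0.43 (SE 0.103; 95% interval -0.65 to -0.22; limma adjusted p = 0.00649), which is 74.0% of the control level.

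Tcap encodes telethonin, which caps the N-terminal end of titin at the Z-disc. Its values were 10.72, 11.00 and 9.74 after 4 tamoxifen injections, against 11.18, 11.38 and 11.39 after 4 control injections. The groups did not overlap, and replicate 3 of the tamoxifen group lay far below the other two. The change was -0.83 (SE 0.225; 95% interval -1.31 to -0.36; limma adjusted p = 0.0138), to 56.2% of the control level.

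Myoz2 encodes myozenin 2, or calsarcin-1, which binds α-actinin and calcineurin at the Z-disc. It had 10.75, 10.79 and 9.35 after 4 tamoxifen injections, against 11.12, 11.23 and 11.13 after 4 control injections. The groups did not overlap, and again replicate 3 of the tamoxifen group was the lowest by a wide margin. The change of -0.87 (SE 0.231; 95% interval -1.35 to -0.38; limma adjusted p = 0.0125) was the largest of the 9 and left 54.8% of the control level.

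Myom2 encodes M-protein, a cross-linker of myosin filaments at the M-band. It had 10.40, 11.07 and 10.01 after 4 tamoxifen injections, against 11.07, 11.16 and 11.19 after 4 control injections. Replicates 1 and 3 of the tamoxifen group were low, and replicate 2 overlapped the control arrays. The change was -0.65 (SE 0.172; 95% interval -1.01 to -0.29; limma adjusted p = 0.0126), to 63.8% of the control level. Ttn, Tcap and Myoz2 were the 3 of the 9 genes whose groups lay apart, all lower after tamoxifen, and 11.3% of all genes tested lay apart in that direction.

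These calls rested on the spread pooled over all 6 groups. With the spread taken from the 6 arrays compared alone, 0 of the 9 genes were called by limma, with adjusted p = 0.276 for Ttn, 0.317 for Tcap, 0.327 for Myom2 and 0.34 for Myoz2, and 17 of all genes were, while 2 of the 9 and 1657 of all genes had an unadjusted p under 0.05. Without replicate 3 of the tamoxifen group the change of Myoz2 was -0.40 and stayed called, while Tcap (-0.45, adjusted p = 0.0575) and Myom2 (-0.37, adjusted p = 0.0542) were not called and Mybpc3 (0.22, adjusted p = 0.0369) was called higher; of all genes 5.77% were then lower and 10.7% higher. Without replicate 2 of that group 6 genes were called lower, with Myom1 at -0.33 and Ldb3 at -0.27 in addition, and so were 14.1% of all genes. Without replicate 3 of the control group Tcap lost its call, at -0.79 and adjusted p = 0.0505. Within the set of 8 arrays the changes were -0.97 for Myom2 (adjusted p = 0.0376), -0.54 for Ttn (0.0835), -1.16 for Tcap (0.0947) and -1.14 for Myoz2 (0.166). Within the set of 13, with 1 array against 1 and no test, they were -0.23 for Ttn, -0.18 for Tcap and -0.34 for Myoz2, and Myom2 was at 0.0012. With the array set as a block 4 genes stayed called.

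The other 5 genes were not called. Myom1, which encodes myomesin 1, the M-band protein that ties titin to myosin, had 10.80, 11.06 and 10.67 after 4 tamoxifen injections, against 10.96, 11.16 and 11.05 after 4 control injections. The groups overlapped, and the change was -0.22 (95% interval -0.39 to -0.04; limma adjusted p = 0.0626). Ldb3, encoding Cypher or ZASP, a PDZ-LIM protein of the Z-disc, had 10.20, 10.58 and 10.11 after 4 tamoxifen injections, against 10.44, 10.53 and 10.26 after 4 control injections. Its change was -0.12 (95% interval -0.33 to 0.10; limma adjusted p = 0.44), with replicate 2 of the tamoxifen group above all 3 control arrays.

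Csrp3 encodes muscle LIM protein, a Z-disc protein linked to the sensing of stretch. It had 10.66, 11.44 and 11.68 after 4 tamoxifen injections, against 11.35, 11.44 and 11.33 after 4 control injections. Replicate 1 was low and replicate 3 high, and the change was -0.11 (95% interval -0.42 to 0.19; limma adjusted p = 0.613). Actn2 encodes sarcomeric α-actinin, the main cross-linker of actin at the Z-disc. Its values were 11.55, 11.93 and 11.90 after 4 tamoxifen injections, against 11.73, 11.84 and 11.79 after 4 control injections, and its change was 0.01 (95% interval -0.16 to 0.17; limma adjusted p = 0.968). Mybpc3 encodes cardiac myosin-binding protein C, which sits on the thick filament and tunes the myosin heads. It had 12.24, 12.39 and 11.83 after 4 tamoxifen injections, against 12.09, 12.09 and 12.15 after 4 control injections, a change of 0.04 (95% interval -0.17 to 0.26; limma adjusted p = 0.799). For these 3 genes the tamoxifen arrays lay on both sides of the control arrays.

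**Figure D2:**
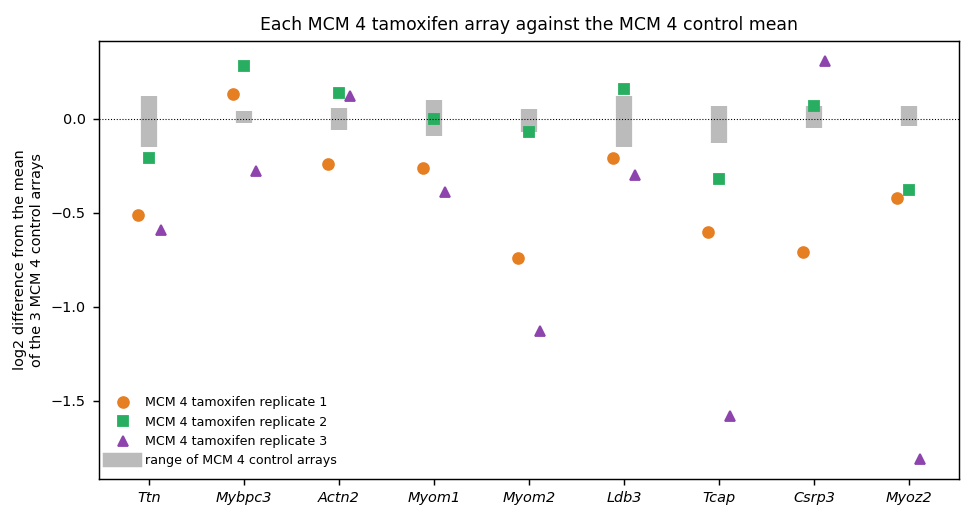
Log2 difference of each MerCreMer array after 4 tamoxifen injections from the mean of the 3 MerCreMer 4 control arrays (vertical axis), per gene. Grey bars span the 3 control arrays. Replicate 3 lies at -1.58 for Tcap and -1.81 for Myoz2 but at 0.31 for Csrp3, and replicate 2 lies at -0.07 for Myom2.

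The 3 tamoxifen arrays differed in which of the 9 genes were low. Against the mean of the 3 control arrays, the median of the 9 genes was -0.42 on replicate 1, 0 on replicate 2 and -0.39 on replicate 3. On replicate 1 Csrp3, at -0.71, and Myom2, at -0.74, were the lowest of the 9, and Mybpc3 was at 0.13. On replicate 3 Myoz2 was at -1.81, Tcap at -1.58 and Myom2 at -1.13, while Csrp3 was at 0.31 and Actn2 at 0.12. On replicate 2 Tcap was at -0.32, Myoz2 at -0.38 and Ttn at -0.21, and Mybpc3 was at 0.28. Ttn, Tcap, Myoz2 and Myom2 were below the control mean on all 3 arrays, with Myom2 at -0.07 on replicate 2. These are the same arrays that gave the calls above.

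Markers of other cells were read on the same arrays. In this comparison 9.41% of all genes tested fell and 13.9% rose. Of the 14 macrophage markers tested, Cd14 reached the minimum of 5 on 3 arrays only through the MerCreMer 4 tamoxifen group, and the other 13 rose by limma, with Cd68 at 1.62. The median of the list, Cd14 included, was 0.94 on replicate 1, 0.33 on replicate 2 and 1.76 on replicate 3 above the control mean. The mean level of all 14 was 6.64 to 8.02 after 4 tamoxifen injections, against 6.24 to 6.29 after 4 control injections. The medians on replicates 1, 2 and 3 were -0.02, 0.09 and 1.13 for the fibroblast list, 0.07, -0.32 and -0.61 for the endothelial list and 0.18, -0.06 and 0.48 for the smooth muscle list, and these lists did not order the 3 arrays alike. Of 10 fibroblast markers 0 were called, with a median change of 0.46 and a mean level of 8.27 to 9.51 after 4 tamoxifen injections, against 8.13 to 8.22 after 4 control injections. Of 9 endothelial markers 3 fell and 0 rose, with a mean level of 7.86 to 8.57 after 4 tamoxifen injections, against 8.39 to 8.56 after 4 control injections. Of 4 smooth muscle markers 0 were called. Of 7 lymphocyte and neutrophil markers on the array only Lcn2 reached the minimum for testing. It rose by 2.40 and lay 3.48, 0.28 and 3.44 above the control mean on replicates 1, 2 and 3. Of 12 cardiomyocyte markers 2 fell, Ryr2 at -1.34 and Pln at -0.77, and 0 rose. Their mean level was 11.33 to 11.94 after 4 tamoxifen injections, against 12.05 to 12.07 after 4 control injections, with a median of -0.06, 0.03 and -0.32 on replicates 1, 2 and 3. The part of these markers in the changes of the 9 genes was not tested. In tissue RNA, fewer cardiomyocytes and less RNA of a gene per cardiomyocyte cannot be told apart.

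**Figure D3:**
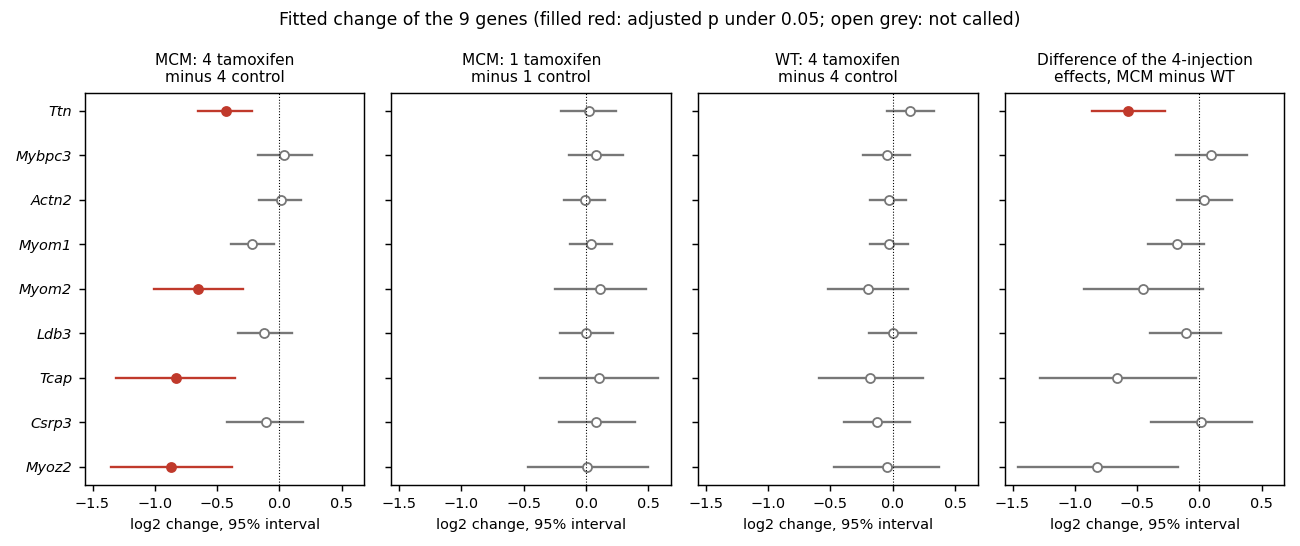
Fitted log2 change (point) and 95% interval (line) of the 9 genes in 4 panels, with filled red marks for an adjusted p under 0.05. In MerCreMer mice 4 genes are called after 4 injections and 0 after 1 injection, 0 are called in wild-type mice, and Ttn alone is called in the difference between the genotypes.

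After a single injection the 9 genes were measured in MerCreMer mice given 1 tamoxifen or 1 control injection. In limma 0 of the 9 genes were called, with 0 at an unadjusted p under 0.05, and 0.00878% of all genes were called, with 380 genes at an unadjusted p under 0.05. The changes lay between -0.01 and 0.11. Ttn had 11.37, 11.45 and 11.42 after 1 tamoxifen injection, against 11.55, 11.26 and 11.37 after 1 control injection. Myom2 had 11.19, 11.20 and 11.19 after 1 tamoxifen injection, against 10.83, 11.34 and 11.06 after 1 control injection. In both genes the groups overlapped, and the tamoxifen arrays lay close together.

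Tcap had 11.07, 11.23 and 11.26 after 1 tamoxifen injection, against 11.00, 10.98 and 11.28 after 1 control injection. Myoz2 had 11.05, 10.96 and 11.08 after 1 tamoxifen injection, against 11.16, 10.84 and 11.05 after 1 control injection. The 95% intervals were -0.20 to 0.24 for Ttn, -0.25 to 0.48 for Myom2, -0.37 to 0.58 for Tcap and -0.47 to 0.50 for Myoz2. A lowering of Tcap as large as -0.83, or of Myoz2 as large as -0.87, lies outside these intervals. Csrp3 had 11.36, 11.35 and 11.32 after 1 tamoxifen injection, against 11.21, 11.30 and 11.27 after 1 control injection, and was 1 gene of the 9 whose groups lay apart, higher after tamoxifen, as 6.88% of all genes did in that direction. Its change was 0.08 (limma adjusted p = 1).

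The difference between the effects of 4 and of 1 injections was -0.93 for Tcap (limma adjusted p = 0.09), -0.88 for Myoz2 (0.116), -0.76 for Myom2 (0.0727) and -0.45 for Ttn (0.0739). In limma 0 of the 9 genes were called, 5 had an unadjusted p under 0.05, and 5.78% of all genes were called. This difference uses the same 6 arrays as the 4-injection comparison, so it adds no independent support to it. Without replicate 2 of the MerCreMer 4 tamoxifen group 5 of the 9 genes and 7.55% of all genes were called lower. Myoz2 alone was called, lower, without replicate 1 (7.05% of all genes lower) or without replicate 3 (3.26%).

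In wild-type mice tamoxifen was given without the transgene. In limma 0 of the 9 genes were called after 4 tamoxifen against 4 control injections, with 0 at an unadjusted p under 0.05. Of all genes 0% were called, with 295 at an unadjusted p under 0.05. The changes lay between -0.20 for Myom2 and 0.14 for Ttn. Ttn had 11.52, 11.55 and 11.48 after 4 tamoxifen injections, against a lowest, median and highest value of 11.27, 11.34 and 11.57 on the 6 control arrays.

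Tcap had 11.17, 10.87 and 10.77 after 4 tamoxifen injections in wild-type mice, against a lowest, median and highest value of 10.72, 11.14 and 11.32 after control injections. Myoz2 had 11.02, 11.02 and 11.05 after tamoxifen, against a lowest, median and highest value of 11.03, 11.07 and 11.26 after control injections. Myom2 had 10.84, 11.02 and 11.29 after tamoxifen, against a lowest, median and highest value of 11.13, 11.16 and 11.45 after control injections. In all 3 genes the wild-type groups overlapped. Csrp3, at 11.34, 11.31 and 11.22 after tamoxifen, against a lowest, median and highest value of 11.37, 11.40 and 11.42 after control injections, was 1 gene of the 9 whose groups lay apart, as 1.69% of all genes did in the lower direction, and its change was -0.13 (limma adjusted p = 1). The 95% intervals were -0.05 to 0.33 for Ttn, -0.59 to 0.24 for Tcap, -0.47 to 0.37 for Myoz2 and -0.52 to 0.12 for Myom2.

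The effect of 4 tamoxifen injections in MerCreMer mice minus that in wild-type mice was called for Ttn, 1 of the 9 genes, against 7.98% of all genes, 3.53% of them lower. For Ttn the difference was -0.57 (SE 0.137; 95% interval -0.86 to -0.28; limma adjusted p = 0.0159). It was -0.82 for Myoz2 (95% interval -1.46 to -0.17; limma adjusted p = 0.108), -0.66 for Tcap (-1.28 to -0.03; 0.184) and -0.45 for Myom2 (-0.93 to 0.03; 0.233), so that these 3 genes were not shown to differ between the genotypes. The other 5 lay between -0.18 and 0.09. The contrast shares the MerCreMer arrays with the 4-injection comparison. With the replicate number as a block the Ttn difference was -0.45 (adjusted p = 0.468), with array weights -0.38 (0.0643) and on female arrays -0.59 (0.118). Without replicate 2 of the MerCreMer 4 tamoxifen group 5 of the 9 genes and 8.12% of all genes were called lower. Without replicate 1 of that group 3 of the 9 were called, Ttn and Myoz2 lower and Csrp3 higher, as were 8.12% of all genes lower and 6.94% higher.

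Between control-injected MerCreMer and wild-type mice 0 of the 9 genes were called by limma, 0.676% of all genes were, and 1 of the 9 and 1694 of all genes had an unadjusted p under 0.05. The changes lay between -0.16 and 0.20. Myom1 was lowest, with 10.96, 11.16 and 11.05 in MerCreMer mice, against a lowest, median and highest value of 11.17, 11.21 and 11.27 in wild-type mice. The groups of Myom1 lay apart, as 4.05% of all genes did in the lower direction, and its change was -0.16 (95% interval -0.31 to -0.01; limma adjusted p = 0.295). The 4 control injections minus 1 control injection in MerCreMer mice gave 0 called of the 9 genes, with changes of 0.01 to 0.23 and 0 at an unadjusted p under 0.05, and 0% of all genes were called, with 375 at an unadjusted p under 0.05. In that contrast Csrp3, at 11.35, 11.44 and 11.33 after 4 control injections, against 11.21, 11.30 and 11.27 after 1, was 1 gene of the 9 whose groups lay apart, as 5.67% of all genes did in the higher direction. Male minus female gave 0 called of the 9 genes, with changes of -0.19 to 0.12 and 0 at an unadjusted p under 0.05, against 0.29% of all genes and 1103 at an unadjusted p under 0.05.

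Ordered by group mean, MerCreMer mice after 4 tamoxifen injections were the lowest of the 6 groups for Ttn, Tcap, Myoz2, Myom2, Myom1 and Ldb3. Of the 45 pairs of neighbouring groups over the 9 genes, 4 differed by more than the larger of their SDs, and over all genes tested 10.6% of such pairs did. The MerCreMer 4 tamoxifen group lay 0.41 below wild-type controls for Ttn and 0.56 below wild-type mice after tamoxifen for Myom2. MerCreMer 4 control mice lay 0.12 below wild-type mice after tamoxifen for Myom1 and 0.13 above MerCreMer 1 tamoxifen mice for Tcap. The other neighbours did not differ by more than the larger SD. Among them, the MerCreMer 4 tamoxifen group lay 0.73 below MerCreMer 1 control mice for Myoz2. The larger SD there was 0.818, and the ranges did not overlap. Of the 45 pairs 3 (6.67%) had ranges apart, against 5.02% of such pairs over all genes tested.

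Other genes of the same structures changed in both directions after 4 tamoxifen against 4 control injections in MerCreMer mice. Myoz1 and Mybphl are left out of these counts, because each reached the minimum for testing only through the group in which it was high. Of 25 other tested Z-disc genes beside the 9, 6 rose and 5 fell, and without any minimum 5 of 27, Myoz1 included, were called higher and 5 lower. Of 11 M-band genes 1 rose and 2 fell, and without any minimum 0 were called higher and 1 lower. Of 8 genes for partners and splicing factors of titin 2 rose and 2 fell, and of 2 further myosin-binding genes 1 rose. The background for these counts is again 13.9% of all genes rising and 9.41% falling. The medians of the lists were 0.01, -0.03, 0.19 and 0.86, against 0.014 for all genes. With the spread of the 6 arrays compared alone 0 of 45 tested genes of these lists, Myoz1 and Mybphl included where tested, were called by limma, 15 had an unadjusted p under 0.05, and the lowest adjusted p was 0.0549, for Mybpc2. Within the set of 8 arrays 1, 0, 2 and 1 genes of the lists were called.

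Among the Z-disc genes, Flnc, encoding filamin C, an actin cross-linker, had 10.59, 10.78 and 11.21 after 4 tamoxifen injections, against 9.74, 10.08 and 9.60 after 4 control injections. All 3 tamoxifen arrays lay above the control arrays, and the change was 1.05 (SE 0.133; limma adjusted p = 3.53e-05). Pdlim1 at 0.64, Xirp1 at 0.79 and Palld, the actin-bundling palladin, at -0.76 were the others named by their adjusted p. The change of Flnc differed from that in wild-type mice by 1.10 (limma adjusted p = 0.000981) and from that after 1 injection by 1.07 (0.0024). With the replicate number as a block the genotype difference was not called (limma adjusted p = 0.182). The injection difference was not called on female arrays (0.0598) or with the spread of the arrays compared alone (0.0617). Within the set of 8 arrays neither the change of Flnc (0.0666) nor its injection difference (0.397) was called. Nebl, encoding nebulette, which links actin filaments to the Z-disc, fell by 1.07, and Nexn, encoding nexilin, fell by 0.79. Both were chosen after their values were seen.

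Among the M-band genes, Cmya5, encoding myospryn, had 9.51, 9.32 and 7.29 after 4 tamoxifen injections, against 10.05, 9.97 and 9.96 after 4 control injections. All 3 tamoxifen arrays were lower, and replicate 3 was lowest by a wide margin. The change was -1.29 (limma adjusted p = 0.0105), and it was -0.59 without replicate 3. Trim63, the titin-binding ubiquitin ligase MuRF1, had 8.84, 8.63 and 7.88 after 4 tamoxifen injections, against 8.99, 8.98 and 9.09 after 4 control injections. Its change of -0.57 (limma adjusted p = 0.0353) became -0.28 (0.212) without replicate 3 of the tamoxifen group, and it lost its call without any 1 of the 3 control arrays. Without replicate 3 of the tamoxifen group 5 of the 11 M-band genes were called, 4 of them higher, against 16.5% of all genes called and 10.7% higher.

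Among the titin partners, Fhl2, a LIM protein that binds the elastic part of titin, had 10.64, 10.82 and 10.46 after 4 tamoxifen injections, against 11.65, 11.60 and 11.53 after 4 control injections. The arrays of the 2 groups lay far apart relative to their spread, and the change was -0.96 (SE 0.0839; limma adjusted p = 6.76e-07). The change in MerCreMer mice differed from that in wild-type mice by -0.96 (limma adjusted p = 5.08e-05) and from that after 1 injection by -1.02. The call of the genotype difference was lost with the replicate number as a block (limma adjusted p = 0.051). That of the injection difference was lost within the set of 8 arrays (0.149). Rbm20, the splicing factor that sets titin isoforms, had 7.94, 9.02 and 8.55 after 4 tamoxifen injections, against 9.21, 9.28 and 9.30 after 4 control injections. All 3 tamoxifen arrays were lower, and the change was -0.76 (limma adjusted p = 0.001). It differed from the change in wild-type mice by -0.71 (limma adjusted p = 0.0245), a call lost without replicate 1 of the MerCreMer 4 control group (0.0783) and without replicate 1 of the wild-type tamoxifen group (0.0776). The gene-level probe sets used here carry no titin isoform. Ankrd23, an ankyrin repeat protein bound to titin's elastic part, rose by 0.75 and Sqstm1, the autophagy adaptor p62, by 0.45.

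**Figure D4:**
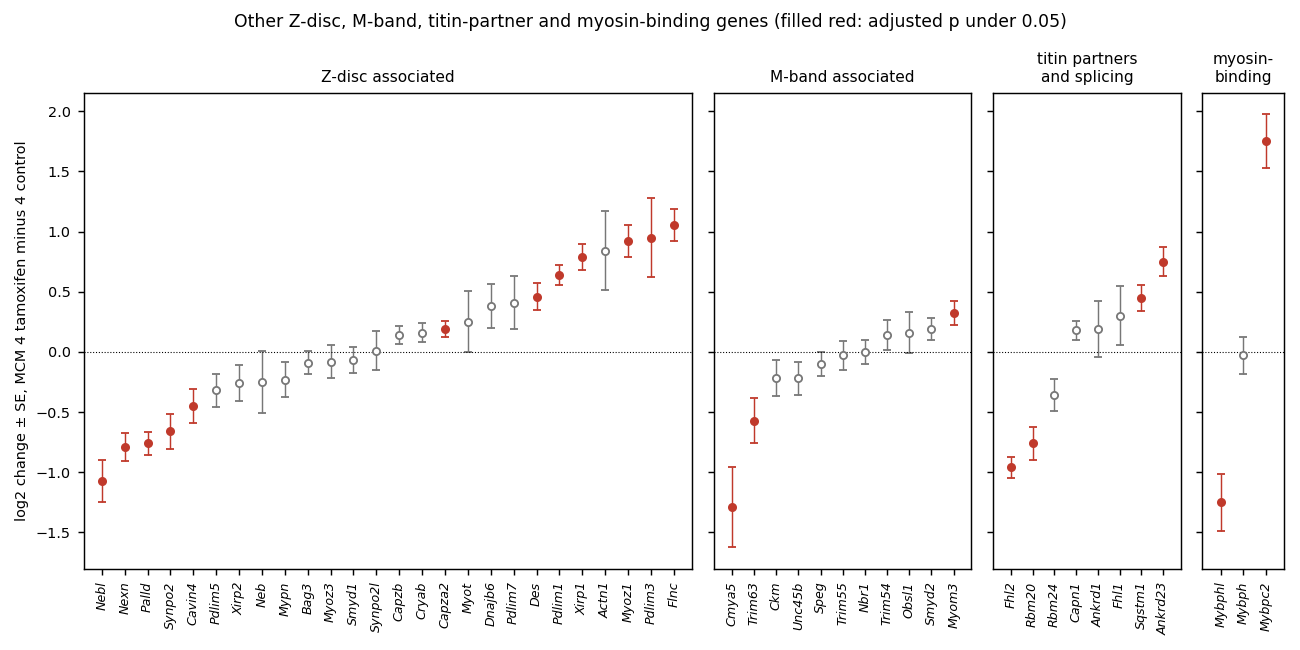
Log2 change with SE (vertical axis) in MerCreMer mice, 4 tamoxifen minus 4 control injections, of the tested genes of 4 lists, sorted within each list. Red filled points have an adjusted p under 0.05 and run from -1.29 for Cmya5 to 1.75 for Mybpc2. They lie on both sides of 0 in each list, in the myosin-binding list only through Mybphl. Myoz1 and Mybphl, both red, reached the minimum for testing through 1 group alone.

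Relatives of the 9 genes went different ways, and these were looked at after their values were seen. Mybpc2, the fast skeletal relative of Mybpc3, had 8.74, 8.46 and 8.65 after 4 tamoxifen injections, against 6.59, 7.25 and 6.76 after 4 control injections. Each tamoxifen array was above each control array, and the change was 1.75 (SE 0.223; limma adjusted p = 4.04e-05), while that of Mybpc3 was 0.04. In the other 4 groups Mybpc2 lay between 6.13 and 7.15, and the effect in MerCreMer mice exceeded that in wild-type mice by 2.01 (limma adjusted p = 0.000423). With the replicate number as a block that excess was 1.77 and not called (limma adjusted p = 0.0779). Of the skeletal muscle markers 1 of 3 tested rose, Tnnt3, at 1.84, against 13.9% of all genes rising. The mean level of all 8 on the array was 4.56 to 4.67 after 4 tamoxifen injections, against 4.34 to 4.45 after 4 control injections. The part of skeletal muscle RNA in these values was not tested.

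Myoz1, the skeletal relative of Myoz2, had 5.44, 5.25 and 5.06 after 4 tamoxifen injections, against 4.54, 4.21 and 4.25 after 4 control injections. It reached the minimum of 5 only on those 3 tamoxifen arrays, so its values are given as a description. Myom3, relative of Myom1 and Myom2, had a change of 0.32 (limma adjusted p = 0.0293) with overlapping groups, and lost its call without replicate 1 of the tamoxifen group and without replicate 1 or 2 of the control group. Actn4, a non-muscle relative of Actn2, had 9.05, 9.34 and 10.20 after 4 tamoxifen injections, against 8.94, 8.93 and 8.94 after 4 control injections. Replicate 3 of the tamoxifen group was the highest by far. The change was 0.59 (limma adjusted p = 0.0167), and it was 0.27 (0.023) without that replicate, 0.57 (0.0529) without replicate 2 and 0.58 (0.0545) without replicate 3 of the control group. Mybphl had 3.83, 4.07 and 4.18 after 4 tamoxifen injections, against 5.38, 5.35 and 5.08 after 4 control injections, and reached the minimum of 5 on 3 arrays only through those control arrays. Its mean was highest in that control group, at 5.27. It was 4.75 and 4.46 in MerCreMer mice after 1 tamoxifen and 1 control injection. In wild-type mice it was 4.39 after tamoxifen and 4.34 after control injections. Of 4 tested atrial markers 1 fell, Myl7 at -3.77, against 9.41% of all genes falling. Myl4 at -2.11, Dkk3 at -0.95 and Nppa at 1.02 were not called. The mean level of all 6 on the array was 5.52 to 6.06 after 4 tamoxifen injections, against 6.78 to 7.06 after 4 control injections. It was 5.36 to 6.93 and 5.18 to 7.13 in MerCreMer mice after 1 tamoxifen and 1 control injection. In wild-type mice it was 5.69 to 6.88 after tamoxifen and 5.02 to 6.41 after control injections. The part of atrial RNA in the value of Mybphl was not tested.

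The genes most like each called gene over all 21 arrays, by Pearson correlation, were Macf1 (0.932), Mmachc (0.921) and Ablim1 (0.919) for Ttn. For Myom2 they were Sesn1 (0.905), Mylk3 (0.904) and Map3k5 (0.902), and for Tcap they were Rilp (0.926), Ndufv1 (0.923) and Trim63 (0.916). For Myoz2 they were Pxmp2 (0.975), Ces1d (0.967) and Txlnb (0.966). Over the 18 arrays without the MerCreMer 4 tamoxifen group the correlations of Myoz2 were 0.415, 0.272 and 0.21, and those of Ttn were 0.843, 0.761 and 0.723. The arrays share the groups, so these values describe likeness across them and carry no test.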

How the data were processed

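Left ventricular total RNA was measured on Affymetrix whole-transcript arrays, 21 in all. The deposited values are log2 expression from RMA. The submitters' processing notes name RMA without a version. They were used as deposited. RMA normalises arrays to a common distribution, so it takes out a change common to most genes. Of 34760 probe sets, 21640 were annotated to 1 gene, and per gene the one with the highest mean was kept. Genes with a log2 value of at least 5 on 3 arrays were tested. Each was fitted with 6 group means and sex in limma 3.58.1 (lmFit, eBayes, R 4.3.3), with Benjamini-Hochberg adjustment over 11384 genes, and called at an adjusted p under 0.05. The fit was tested on simulated data. The 9 genes and all gene lists were chosen with earlier results of these data known. The text names all 9 genes, of each list up to 4 called genes with the smallest adjusted p, and the 3 genes most correlated with each called gene. Alternatives were no sex term, a replicate block, fewer arrays, weights, other scalings and filters, and each array left out. Promoter windows are RefSeq's (GRCm38.p6). The number of arrays limits the precision.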

Additional observations from a re-analysis of the deposited data

Results flagged for a closer look

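Actn2 in wild-type mice after 4 control injections had a value of 11.84 on replicate 3, farther from the other 5 arrays than their spread allowed by Dixon's test (gap over range 0.68). It was 1 of 9 genes examined in that group, and chance alone singles out about 5% of such groups. The effect of 4 tamoxifen injections on Ttn differed between MerCreMer and wild-type mice by -0.57 (limma adjusted p = 0.0159). Ttn was lower in MerCreMer mice, at -0.43, and its change in wild-type mice was 0.14.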

How the results depend on the processing

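In 35 alternative fits of 4 tamoxifen against 4 control injections in MerCreMer mice, 26 gave 4 called genes of the 9. The count was 0 with the spread of the arrays compared alone, 1 (Tcap) on female arrays, 1 (Myoz2) with array weights and 1 (Myom2) within the set of 8 arrays, an alternative chosen after seeing the data. A minimum of 6 on 3 arrays gave 5, with Myom1 at adjusted p = 0.0497 beside the 4, and 12.4% of 8555 genes were then lower. Weights from each group's variance gave 3, with Ttn at adjusted p = 0.0526. Leaving out 1 array gave 3 to 6. Within the set of 13, 1 array against 1 and without a test, Myom2 was at 0.0012, Ttn at -0.23, Tcap at -0.18 and Myoz2 at -0.34. The genotype difference of the effects was called for 1 gene, for 0 on female arrays, for 0 with array weights, for 2 with weights from each group's variance and for 1 to 5 with 1 array left out. The difference between 4 and 1 injections was called for 0 genes, for 1 with weights from each group's variance and for 0 to 5 with 1 array left out. Counts over all genes in the first comparison ran from 17 to 3846 around 2654, for the genotype difference of effects from 27 to 2242 around 909, for the injection difference from 7 to 1956 around 658, for control-injected MerCreMer against wild type from 1 to 1070 around 77, and for sex from 2 to 95 around 33. In the other comparisons 0 of the 9 genes were called in any alternative. The cause of these shifts was not tested.

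With the replicate number as a block, 4 of the 9 genes stayed called in the first comparison, 1655 of all genes were called, and the genotype difference of effects was called for 0. Deviations of same-numbered arrays of the MerCreMer 4 tamoxifen and 4 control groups correlated at 0.11, -0.04 and 0.05. After sex was taken out the values were -0.39, -0.03 and -0.13. In other pairs of groups, before sex was taken out, they ran from -0.24 to 0.36. With so few arrays these values cannot decide whether the numbers pair the samples, and the labels do not say. In groups of 3 the number runs with sex.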

Other observations

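Among themselves the 9 genes were related differently with and without the MerCreMer mice given 4 tamoxifen injections. Over all 21 arrays Tcap and Myoz2, both Z-disc genes, had a Pearson correlation of 0.83, and over the 18 arrays without that group one of -0.01. For Ttn and Myom2 the values were 0.62 and -0.58, and for Myom2 and Myoz2 0.78 and -0.15. Ttn and Ldb3, at 0.64 and 0.65, and Mybpc3 and Myom2, at 0.56 and 0.72, were alike with and without that group. Actn2 and Csrp3 had 0.76 and 0.22. The arrays share groups and sex, so these values are descriptions.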
